A study of Mus with 2 samples.

Results

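Transcripts of 8 genes that handle heme and iron were followed across 2 CT26 tumor sections, of which 1 was a control and 1 had been exposed to recombinant mouse IL-7 (rIL7). The genes were Hmox1, Slc40a1, Fth1, Ftl1, Blvrb, Tfrc, Slc11a1 and Slc48a1, taken by symbol from 32285 measured features, and all 8 had transcripts in both sections. They were chosen by their measured differences between the sections and between places within a section, so their own levels are given as a description and carry no test. CT26 is a colon carcinoma cell line of the BALB/c strain, and 200000 of its cells had been placed under the skin of BALB/c mice aged 6 to 8 weeks. The control mouse received PBS, the rIL7 mouse received 10 µg of rIL7 into the peritoneum on day 11 and again on day 13, and both Visium sections are labelled day 15. Each group thus holds 1 section of a transplanted tumor, and no difference between the sections has a replicate check.

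Visium captures the RNA of a tissue section on a grid of barcoded spots, each of which can cover several cells, and counts each molecule once through its unique molecular identifier (UMI). There were 2219 kept control spots and 1950 kept rIL7 spots, with 22951678 and 25729233 UMIs and a median of 9623 and 12921.5 UMIs per spot. Levels are given as counts per 1000000 UMIs (CPM), and the range after a level or ratio is a 95% interval that covers counting error only. The median array row and the median array column cut each section into 4 quadrants, which show the spread within a section and are no replicates. Spots within 2 grid steps of the tissue outline were called the edge (401 control and 330 rIL7 spots), and deeper spots the interior (1806 and 1599). In such tissue, fewer cells of a type and less RNA per cell cannot be told apart.

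Heme is an iron-bearing ring that is toxic when free. Macrophages that take up dying red blood cells break it down: heme oxygenase opens the ring and frees its iron, which is then stored in ferritin or sent out of the cell through ferroportin. Tumor macrophages can store iron or release it, and dividing tumor cells take iron in through the transferrin receptor.

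The transcript for the breakdown step showed the largest difference. Hmox1 encodes the inducible heme oxygenase and lies on chromosome 8, 75093618 to 75100593 (mm10). Control tissue had 429 UMIs of it and rIL7 tissue 2670, or 18.7 CPM (17.0 to 20.5) and 104 CPM (99.9 to 108). The rIL7 section was thus 5.55-fold higher (5.01 to 6.16). Control quadrants held 11.0, 24.6, 14.3 and 28.7 CPM, and rIL7 quadrants held 53.6, 111, 56.0 and 184 CPM, in the order upper left, upper right, lower left and lower right, where upper means a low array row and left a low array column. The lowest rIL7 quadrant was above the highest control quadrant, and in both sections the right side was higher than the left. By the size of its ratio Hmox1 stood 8th from the top among 7613 genes whose mean reached 20 CPM. The 10 macrophage markers summed to 3625 and 4385 CPM, with quadrants of 2699 to 4547 and 3327 to 5421 CPM, the 5 neutrophil markers to 140 and 251 CPM and the 6 T cell markers to 25.6 and 85.0 CPM, control first; their part in the section ratios was not tested.

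The transcript for iron export differed in the same direction. Slc40a1 encodes ferroportin, the iron exporter (chromosome 1, 45908070 to 45926532). It was scarce, with 35 and 177 UMIs, or 1.52 CPM (1.06 to 2.12) for the control and 6.88 CPM (5.90 to 7.97) for rIL7. Its ratio was 4.51 (3.13 to 6.68). The quadrants held 1.14, 3.23, 0.794 and 1.1 CPM for the control and 1.84, 8.10, 4.45 and 12.7 CPM for rIL7, so the groups of quadrants overlapped.

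Both ferritin chains were abundant and differed little. Ferritin heavy chain oxidizes the iron that ferritin stores, and its gene Fth1 (chromosome 19, 9980600 to 9985111) had 5515 CPM (5484 to 5545) without and 5558 CPM (5529 to 5587) with rIL7. Its ratio was 1.01 (1.0 to 1.02), and the quadrants ran into each other, from 5042 to 6131 CPM and from 5328 to 5918 CPM. Ferritin light chain helps to lay down the iron core. Its gene Ftl1 (chromosome 7, 45457944 to 45459886) had 1452 CPM (1437 to 1468) and 1808 CPM (1791 to 1824), which gives 1.24 (1.23 to 1.26). Control quadrants of 1286 to 1550 CPM met rIL7 quadrants of 1531 to 2069 CPM. For each Ftl1 UMI there were 3.80 Fth1 UMIs in control and 3.07 in rIL7 tissue, fewer heavy chain transcripts for each light chain transcript. The Ftl1-ps1 pseudogene, a near copy of Ftl1, was counted apart with 853 and 1013 UMIs, and reads may have been split between the pair.

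Blvrb encodes biliverdin reductase B, which reduces heme breakdown products and flavins (chromosome 7, 27447978 to 27465981). Its level was 56.2 CPM (53.1 to 59.3) for control and 78.4 CPM (75.0 to 81.9) for rIL7, 1.40-fold higher (1.30 to 1.5). Control quadrants ran from 46.6 to 61.9 CPM and rIL7 quadrants from 67.3 to 91.2 CPM, without overlap. Slc48a1 encodes a transporter that carries heme from lysosomes into the cytoplasm (chromosome 15, 97784365 to 97792692). It stood at 60.3 CPM (57.1 to 63.5) and 67.0 CPM (63.9 to 70.3), a ratio of 1.11 (1.04 to 1.20), with quadrants of 46.3 to 68.2 and 61.0 to 76.0 CPM that overlapped.

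The transcript for uptake of transferrin iron differed the other way. Tfrc encodes transferrin receptor 1 (chromosome 16, 32608896 to 32632794) and had 1675 UMIs without and 1147 UMIs with rIL7, or 73.0 CPM (69.5 to 76.6) and 44.6 CPM (42.0 to 47.2). It was 1.64-fold lower in the rIL7 section (1.52 to 1.77). Every rIL7 quadrant, from 36.9 to 54.3 CPM, was below every control quadrant, from 66.7 to 78.1 CPM. The summed markers of dividing cells stood at 652 and 667 CPM, and those of the CT26 line at 1293 and 1043 CPM. Slc11a1 encodes NRAMP1, a pump that moves metal out of the phagosome of macrophages and neutrophils (chromosome 1, 74375014 to 74386057). At 20.7 CPM (18.8 to 22.6) and 22.1 CPM (20.3 to 24.0), it had a ratio of 1.07 (0.946 to 1.21). Quadrants of 14.1 to 25.7 CPM and 14.3 to 28.7 CPM overlapped.

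**Figure D1:**
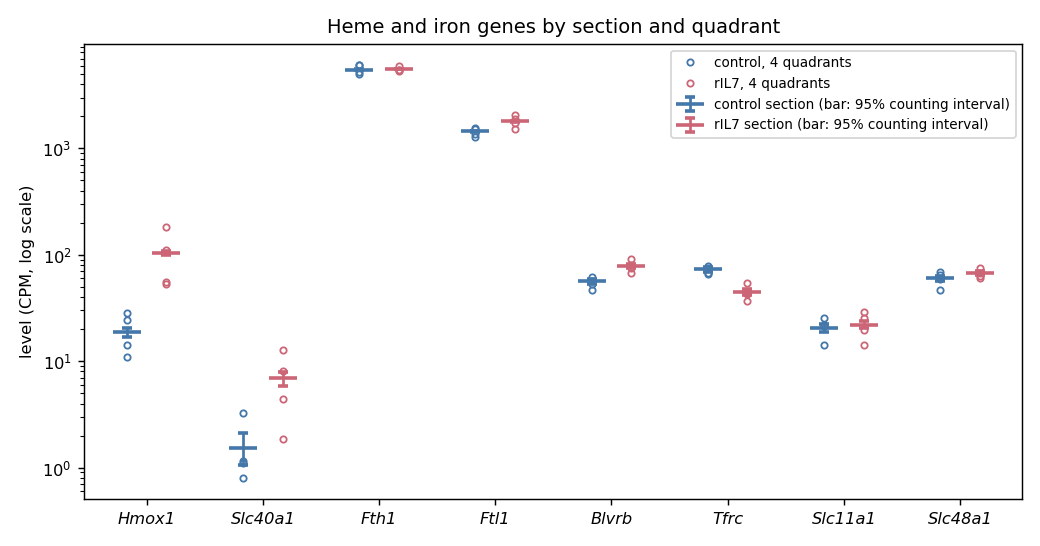
Level of each gene in CPM on a log axis, control in blue and rIL7 in red. Horizontal marks are section levels with the 95% counting interval, and open circles are the 4 quadrants; Hmox1 and Blvrb quadrants are apart and higher in rIL7, and Tfrc quadrants are apart and lower.

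With a limit of 1.5-fold, 2 of the 8 genes were higher in the rIL7 section (Hmox1 and Slc40a1), where 1.97% of all 7613 genes passed, and 1 was lower (Tfrc), where 1.27% passed. Quadrants were apart and higher in rIL7 for 2 of the 8 (Hmox1 and Blvrb) against 10.0% of all genes, and apart and lower for 1 (Tfrc) against 11.8%. The median log2 ratio was 0.23 over the 8 genes and -0.01 over all genes. Slc40a1, with a mean of 4.2 CPM, is the 1 gene of the 8 that is not among the 7613. Since these ratios were used to choose the genes, the counts describe the choice and nothing was read from them.

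Hmox1 was concentrated in 1 place of the rIL7 tumor. The level over each spot and its 6 neighbours peaked at 2694 CPM, 13 grid steps inside the outline, where the median neighbourhood held 33.9 CPM. It lay on the border of the upper and lower right quadrants, so both share it. In the control section the highest neighbourhood also lay deep in the tumor, 14 steps from the outline, and held 360 CPM where the median was 14.8. Within 2 steps of the peak the rIL7 section had 778 Hmox1 UMIs in 19 spots, and the control section had 13 UMIs in 19 spots. After each spot was thinned to 5900 UMIs, 9.79% of control spots (8.52 to 11.2) and 23.9% of rIL7 spots (21.9 to 25.9) had an Hmox1 UMI. Unthinned, the shares were 16% and 38.7%. The tenth of thinned spots with the most Hmox1 held 72.1% of its UMIs in the rIL7 section and 100% in the control section. The control value follows from scarcity, as only 9.79% of thinned control spots had any. Moran's I, which is 0 for a random scatter and near 1 where neighbours are alike, was 0.674 for Hmox1 with rIL7 and 0.080 without. Fth1 had 0.553 and 0.432, Ftl1 0.544 and 0.170, and Slc40a1 0.169 and 0.018, again rIL7 first. It was at most 0.0902 for Blvrb, Tfrc, Slc11a1 or Slc48a1 in either section. These spatial values describe 1 section each.

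**Figure D2:**
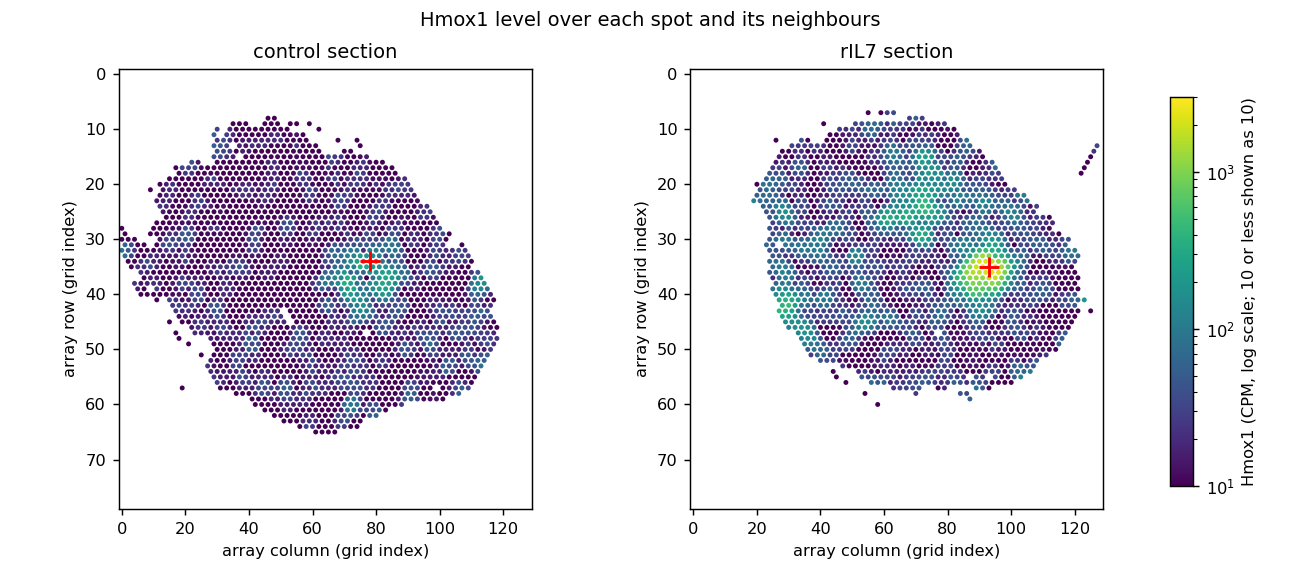
Hmox1 level in CPM over each spot and its neighbours, on a log color scale, at the array column and row of the spot, with a red cross on the highest neighbourhood of each section. The rIL7 section has 1 compact bright area that reaches 2694 CPM, and the control section a fainter area that reaches 360 CPM.

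The other iron genes were then measured in rings around these peaks. The peaks were placed by Hmox1 alone, after its map had been seen, so the fall of Hmox1 itself with distance follows from the choice. Spots 10 or more steps from either peak reach the outline, so the rings also differ in distance from it. In the rIL7 section Hmox1 held 1936, 584, 144, 47.2 and 53.3 CPM at 0 to 2, 3 to 4, 5 to 6, 7 to 9 and 10 or more steps. Slc40a1 followed it, at 110, 53.3, 14.2, 3.83 and 2.96 CPM in the same rings. The 61 spots within 4 steps held 89 of its 177 UMIs. Against spots 10 or more steps away, Slc40a1 was 24.1-fold higher within 4 steps (17.2 to 33.9), the largest ratio of 7497 genes whose mean over both zones reached 20 CPM, and Hmox1 was second with 19.1. Slc40a1 passed that filter only through its level near the peak.

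Ferritin and heme transport transcripts were also higher at the rIL7 peak. Ftl1 held 6860 CPM within 2 steps and 1686 CPM at 10 or more, and its own highest neighbourhood was the same one as that of Hmox1. Fth1 held 14787 and 5378 CPM, with its peak 1 step away. Within 4 steps Slc48a1 was 3.23-fold (2.80 to 3.71), Ftl1 2.59-fold (2.51 to 2.66), Fth1 1.91-fold (1.88 to 1.95), Slc11a1 1.82-fold (1.33 to 2.44) and Blvrb 1.65-fold higher (1.39 to 1.94). Tfrc did not follow them: it had 35.3 CPM within 4 steps and 46.9 CPM at 10 or more, a ratio of 0.753 (0.544 to 1.02). In all, 7 of the 8 genes were at least 1.5-fold higher near the rIL7 peak, including Hmox1, which placed it, where 2.47% of 7497 genes were, and none of the 8 was as much lower, where 6.15% were. The 7 also include Slc40a1, which is among the 7497 only through its level near the peak, so nothing was read from this count. The ferritin balance differed with distance as well, with 2.16 Fth1 UMIs per Ftl1 UMI within 2 steps and 3.19 at 10 or more.

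Around the control peak, where depth was much lower, some of the 8 genes were also higher. Hmox1 held 174 CPM (92.9 to 298) within 2 steps and 14.5 CPM at 10 or more. Slc40a1 had 8 UMIs within 4 steps, or 21.5 CPM against 1.12 CPM, a ratio of 19.3 (7.45 to 44.6). Fth1 was 1.76-fold (1.70 to 1.82), Slc48a1 1.76-fold (1.24 to 2.44), Ftl1 1.58-fold (1.48 to 1.69) and Slc11a1 1.93-fold higher (1.07 to 3.22). Blvrb, at 0.918 (0.550 to 1.44), and Tfrc, at 0.986 (0.647 to 1.44), had intervals that included 1. Here 6 of the 8 genes were at least 1.5-fold higher near the peak, and none was as much lower, where 10.9% and 11.5% of 7479 genes were. The 6 include Hmox1, which placed the peak, and Slc40a1, which is too scarce to be among the 7479, so nothing was read from this count. Fth1 UMIs per Ftl1 UMI were 4.10 within 2 steps and 3.75 at 10 or more, so the lower ratio seen near the rIL7 peak was not seen here.

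**Figure D3:**
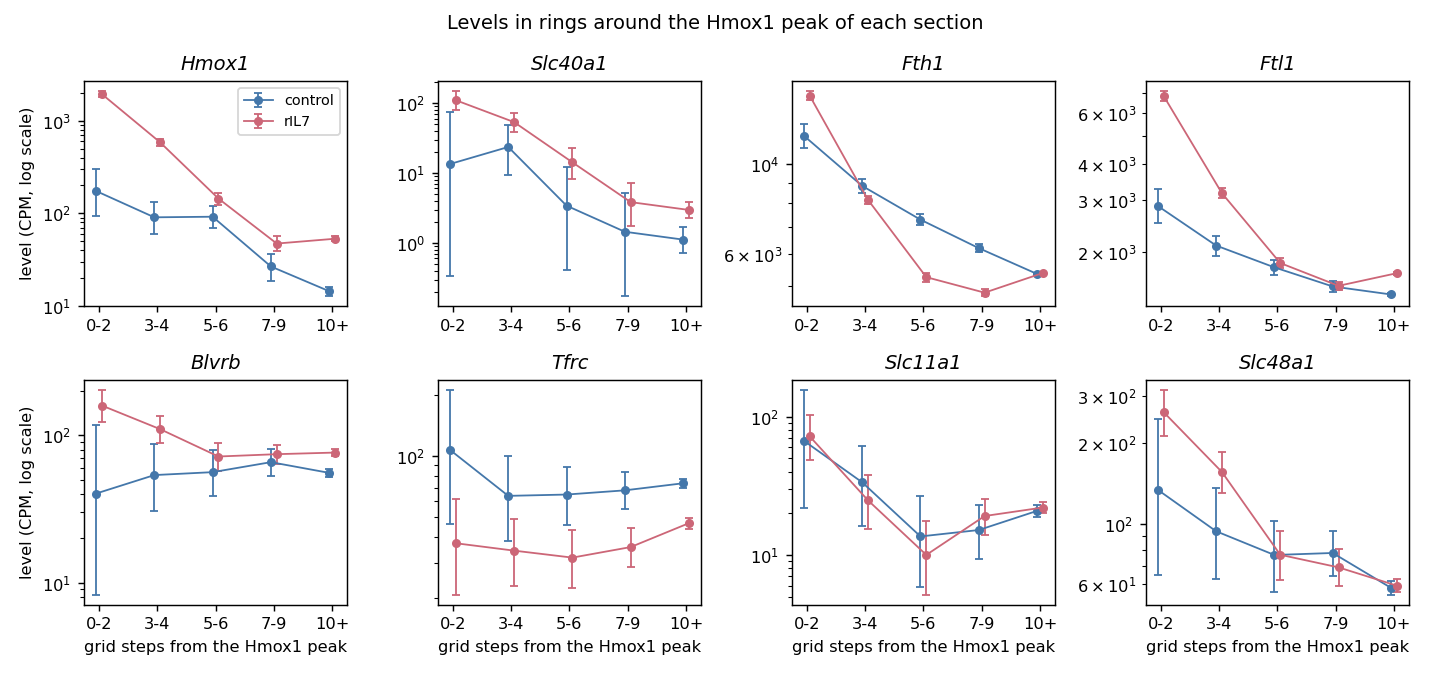
Level of each gene in CPM on log axes in 5 rings of distance from the Hmox1 peak of its section, with 95% counting intervals, control in blue and rIL7 in red. In the rIL7 section Slc40a1 goes from 110 to 2.96 CPM and Ftl1 from 6860 to 1686 CPM, while Tfrc stays between 31.7 and 46.9 CPM.

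The tissue around the peaks differed between the sections. Within 2 steps of the rIL7 peak the median spot held 20767 UMIs, above the 12148 at 10 or more steps, while at the control peak it held 3532 UMIs, below the 9767 farther away. The 10 macrophage markers summed to 7494 CPM at the rIL7 peak and 4340 CPM at 10 or more steps, with 3 of the 10 at least 1.5-fold higher within 4 steps, where 2.47% of all genes were. These were Mrc1, Cd68 and Mertk, of which Mertk had 13 UMIs and an interval of 0.810 to 2.76. Its mean was below the 20 CPM that this share requires. At the control peak the 10 macrophage markers summed to 1476 CPM against 3746 CPM, with 6 of the 10 at least 1.5-fold lower, where 11.5% of all genes were. The sum of the 5 neutrophil markers was higher at both peaks, at 1185 CPM within 2 steps against 238 CPM at 10 or more for rIL7 and 3851 against 95.5 CPM for the control. In the rIL7 section the calprotectin genes S100a8 and S100a9 carried that sum, at 3.41-fold (2.96 to 3.93) and 3.16-fold (2.89 to 3.45) within 4 steps. The receptor genes Csf3r, at 0.967 (0.641 to 1.41), and Cxcr2, at 0.638 (0.129 to 1.93) on 3 UMIs, were not higher there. Near the control peak S100a8 was at 18.7 (15.4 to 22.6), S100a9 at 27.2 (24.5 to 30.2), Csf3r at 6.76 (4.78 to 9.33) and Cxcr2 at 1.56 (0.185 to 5.84). T cell markers were at least 1.5-fold lower within 4 steps of the rIL7 peak for 6 of 6 genes, where 6.15% of 7497 genes were. All 6 had means below the 20 CPM that this share requires. The intervals of Cd3d (0.312 to 1.15) and Cd8b1 (0.107 to 1.04) included 1. The 6 summed to 32.4 CPM within 2 steps and 92.0 CPM at 10 or more. The spots within 2 steps of this peak lay 11 to 15 steps from the outline. By distance from the outline, the 6 summed to 214 CPM at 1 to 2 steps and 42.9 CPM at 10 or more in the rIL7 section. The part of position in their lower level at the peak was not tested. At the control peak they had 0 UMIs within 2 steps, where 3 UMIs would be 40.2 CPM, and 26.6 CPM at 10 or more. Red blood cell transcripts were rare. Their list had 88 UMIs in the whole control section and 70 in the rIL7 section, Alas2 was at 0 in both, and 7 UMIs fell within 2 steps of the rIL7 peak and none of the control peak, where 3 UMIs would be 40.2 CPM. At the rIL7 peak that was 17.4 CPM (7.00 to 35.9) against 2.53 CPM at 10 or more steps, and the globin gene Hbb-bs was 6.16-fold higher within 4 steps (2.79 to 12.6) on 11 UMIs. The part of depth and of these cell types in the Hmox1 values was not tested.

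**Figure D4:**
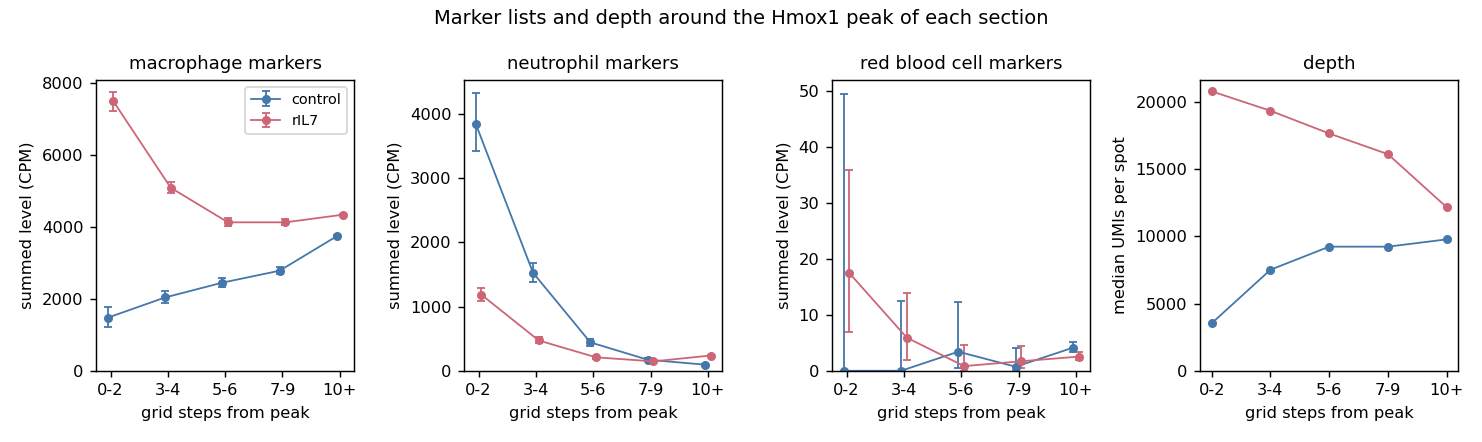
Summed CPM of macrophage, neutrophil and red blood cell markers, with 95% counting intervals, and median UMIs per spot, by distance from the Hmox1 peak of each section. Macrophage markers reach 7494 CPM at the rIL7 peak and 1476 CPM at the control peak, and neutrophil markers 1185 and 3851 CPM.

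The rIL7 excess of Hmox1 was not confined to that area. The 127 spots within 6 steps of the rIL7 peak held 9.50% of its UMIs of all genes and 54.1% of its Hmox1 UMIs, and the 127 control spots held 4.18% and 21.9%. Beyond 6 steps Hmox1 stood at 15.2 CPM for control and 52.7 CPM for rIL7, a ratio of 3.46 (3.06 to 3.91). Slc40a1 beyond 6 steps had a ratio of 2.68 (1.68 to 4.42), Ftl1 of 1.17 (1.15 to 1.19), Blvrb of 1.35 (1.26 to 1.46) and Slc48a1 of 1.01 (0.940 to 1.1). Tfrc was 1.6-fold lower there. Separate areas of the rIL7 section reached 459 CPM of Hmox1 at the lower left edge, 2 steps from the outline, and 458 CPM in the upper interior, 13 steps deep. Within 2 steps of them Ftl1 held 3142 and 2749 CPM and Fth1 8753 and 8776 CPM. Slc40a1 had 0 and 3.69 CPM there, and macrophage markers 3062 and 2480 CPM, so these areas lacked the ferroportin and macrophage levels of the main peak. Neutrophil markers had 789 and 1100 CPM there, against 1185 CPM at the main peak and 251 CPM over the whole rIL7 section. Per 1000 UMIs of the macrophage list, Hmox1 had 5.16 UMIs in the whole control and 23.7 in the whole rIL7 section.

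Position against the outline was the other axis. In the control section none of the 8 genes was at least 1.5-fold higher at the edge, where 0.565% of genes were, and none at least 1.5-fold lower, where 0.788% were. In the rIL7 section Slc11a1 was higher at the edge, where 4.41% of genes were, and Hmox1 was lower, where 4.78% were. Slc11a1 had 43.3 CPM at the rIL7 edge and 18.3 CPM in the interior, a ratio of 2.37 (1.97 to 2.84), and was between 1.97-fold and 2.71-fold higher at the edge in all 4 quadrants. In the control its ratio was 1.29 (1.03 to 1.6), and it was higher at the edge in 3 of the 4 quadrants. The macrophage list was at 6763 CPM at the rIL7 edge and 3940 CPM in the interior, and at 3669 and 3612 CPM in the control. Per UMI of that list, none of the 8 genes was at least 1.5-fold higher at the rIL7 edge, and the share of all genes was not computed.

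Hmox1 was 2.14-fold lower at the rIL7 edge than in the interior (1.86 to 2.48), at 53.0 and 114 CPM. The split by quadrant was uneven, with edge over interior ratios of 0.649, 0.212, 2.64 and 0.141, and in the lower left quadrant 120 Hmox1 UMIs lay at the edge. Without the spots within 6 steps of the peak the log2 ratio was 0.00. That removal lowers the interior by construction, since those spots were chosen for Hmox1, and the quadrants away from the peak went opposite ways, at 0.649 in the upper left and 2.64 in the lower left. In the control the ratio was 0.857 (0.658 to 1.1). Ftl1 was higher at the rIL7 edge, with 2276 against 1722 CPM and a ratio of 1.32 (1.29 to 1.35), in 4 of 4 quadrants, and was level in the control at 1.01 (0.982 to 1.04). Blvrb was likewise higher in 4 of 4 rIL7 quadrants, with a ratio of 1.29 (1.15 to 1.45). Per UMI of the macrophage list both turned, to log2 ratios of -0.38 for Ftl1 and -0.41 for Blvrb. Fth1 was lower at the control edge in 4 of 4 quadrants, with a ratio of 0.794 (0.782 to 0.806), against 0.978 (0.964 to 0.992) in the rIL7 section. Slc40a1 had 7 control and 20 rIL7 UMIs at the edge, and its intervals included 1 in both sections, as did those of Tfrc and Slc48a1. Compared between the sections at the edge alone, Hmox1 was 3.20-fold, Slc40a1 3.26-fold, Blvrb 1.79-fold, Slc11a1 1.75-fold and Ftl1 1.56-fold higher in rIL7. In the interior alone those ratios were 5.89, 4.74, 1.32, 0.948 and 1.19.

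**Figure D5:**
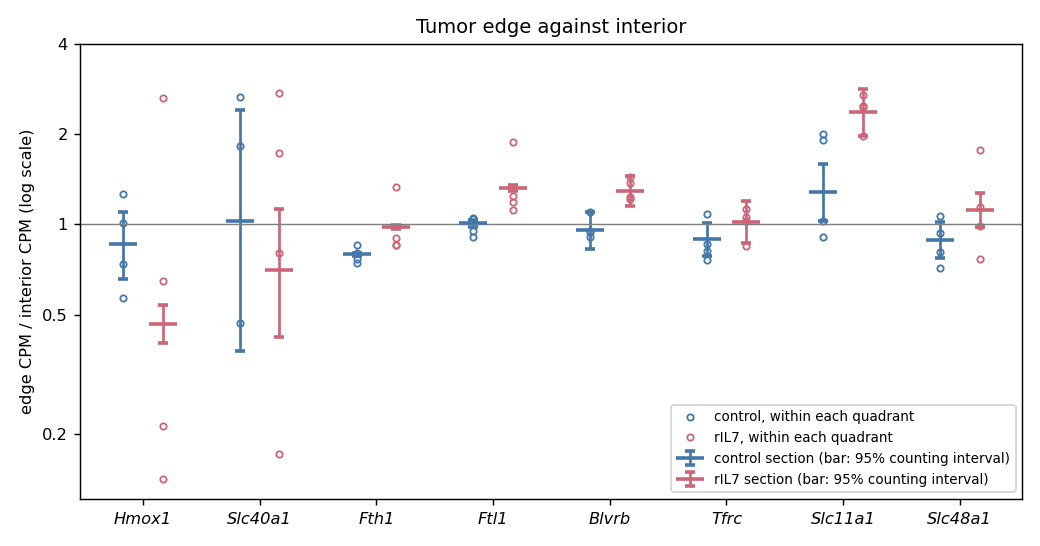
Edge CPM over interior CPM on a log axis, with section values and 95% counting intervals as marks and the ratio within each quadrant as open circles; a control quadrant with 0 Slc40a1 UMIs at its edge is not drawn. Slc11a1 lies above 1 in all 4 rIL7 quadrants, and Hmox1 runs from 0.141 to 2.64.

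Genes of the same pathways, from lists that name heme and iron functions, were mostly level between the sections, as were genes at large. Of all 7613 genes 1.97% were at least 1.5-fold higher in rIL7 and 1.27% as much lower. A list with no gene past 1.5-fold is near those shares, so nothing was read from such a count. Of 8 heme synthesis genes none was 1.5-fold different, with ratios from 0.799 for Uros to 1.09 for Alas1, the first enzyme of the pathway. None of 9 heme breakdown and transport genes was either, and Hmox2, the constitutive heme oxygenase, had a ratio of 0.911 (0.834 to 0.996). Among them Abcb6, a porphyrin transporter, had the smallest ratio at 0.674 and Abcg2, which exports porphyrins, the largest at 1.18. Hemoglobin and heme scavenging genes were at least 1.5-fold higher for 3 of 5, where 1.97% of the 7613 genes were. The lists also hold scarcer genes, which that share leaves out. These 3 were Cd163, the macrophage receptor for hemoglobin bound to haptoglobin (2.36, 1.99 to 2.81), Hp, haptoglobin itself (2.18, 1.84 to 2.59), and Trf, transferrin (1.78, 1.63 to 1.95). Quadrants were apart and higher in rIL7 for all 3, where those of 10.0% of the 7613 genes were. The 3 were named for having passed 1.5-fold, so nothing was read from that count. Hpx, hemopexin, was lowest at 0.932.

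Of 13 genes for other routes of iron uptake and reduction 4 were higher and 1 lower, where 1.97% and 1.27% of all genes were. Lcn2, which binds iron carried by siderophores and is also made by neutrophils, had 54 and 335 UMIs and a ratio of 5.53 (4.14 to 7.52). Steap4, a metalloreductase, had 15 and 74 UMIs and a ratio of 4.4 (2.50 to 8.26). Scara5, a ferritin receptor, was at 1.92 (1.70 to 2.17) and Slc39a14, a transporter of iron not bound to transferrin, at 1.56 (1.46 to 1.67). Tfr2, the second transferrin receptor, was 1.89-fold lower. Cp, ceruloplasmin, which oxidizes exported iron, was 2.16-fold higher (1.87 to 2.51), and Hfe, also on the export list, had a ratio of 0.992. No gene passed 1.5-fold among 5 of iron storage and chaperones, 3 of the iron regulatory proteins, 14 of mitochondrial iron and iron-sulfur clusters, or 7 of ferroptosis defense. Their extremes were 0.909 for Pcbp1 and 1.12 for Ncoa4, 0.920 for Aco1 and 1.24 for Fbxl5, 0.80 for Iscu, and 0.834 for Gpx4 and 1.44 for Alox5. Of 16 genes of NRF2 and BACH1, the activator and the repressor that act on Hmox1 and both ferritin genes, 1 was higher. It was Slc7a11, the cystine transporter, at 1.59 (1.27 to 2.00), and Mafk was lowest at 0.856.

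The same NRF2 and BACH1 list looked different around the peaks. Within 4 steps of the rIL7 peak 7 of its 16 genes were at least 1.5-fold higher than at 10 or more steps, where 2.47% of all genes were, and none was 1.5-fold lower. That share covers only genes whose mean over both zones reached 20 CPM, and Osgin1, Slc7a11 and Nqo1 of the 7 fell below that. The intervals of 6 of the 7 lay above 1, and that of Nqo1 ran from 0.776 to 6.56. Osgin1 was 5.15-fold (3.4 to 7.62), Gclm 2.84-fold (2.31 to 3.47), Slc7a11 2.77-fold (1.80 to 4.12) and Srxn1 2.73-fold higher (2.27 to 3.26). Gclm and Srxn1 serve glutathione synthesis and the repair of oxidized peroxiredoxins. Near the control peak 2 of the 16 were higher and 1 lower, where 10.9% and 11.5% of all genes were. The 2 were Maff at 2.98 (2.22 to 3.93) and Slc7a11 at 3.69 (1.45 to 7.87), and there Gclm was at 1.27 (0.674 to 2.20) and Srxn1 at 0.862 (0.457 to 1.48). Slc7a11 and the lower gene, Nqo1, were again below 20 CPM and outside those shares. Cd163 was 2.83-fold higher near the rIL7 peak (2.09 to 3.76). No heme synthesis gene was higher near either peak, and Alas1 was lower near the rIL7 peak at 0.576 (0.344 to 0.908).

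The genes most like Hmox1 in their distribution were found over 16 blocks per section, each a quadrant and a band of distance from the outline. By the smaller of the Spearman correlations in the 2 sections they were Mt1, Ccn1, Adam8, Ldha, Gapdh, Pgm1, Tiparp, Plin2, Pgk1 and Krt80. Mt1, a metallothionein that binds zinc and copper, had a correlation of 0.806 in both sections, and Krt80 had 0.712 and 0.724. Ldha, Gapdh, Pgm1 and Pgk1 are enzymes of glucose metabolism. Over all 7612 other genes the median was 0.018 for control and -0.056 for rIL7. Among the iron genes the rIL7 values were 0.703 for Slc48a1, 0.665 for Fth1 and 0.379 for Ftl1, and in the control they were 0.365, 0.303 and -0.032. Tfrc, Blvrb and Slc11a1 did not follow Hmox1 in this way. They had 0.135, -0.029 and -0.224 in rIL7 and -0.453, -0.232 and -0.085 in the control. Blocks of a section share 1 library, so these are descriptions. Across single thinned spots the correlations were weak: over the 28 pairs of the 8 genes the median was 0.015 for control and 0.056 for rIL7, and the highest was 0.25, for Hmox1 with Ftl1 in rIL7. All genes were weakly related to Hmox1 at this scale. Over 7612 genes in rIL7 the 95th percentile of the correlation with Hmox1 was 0.047 and the highest value 0.253, for Mt1. Ftl1 and, at 0.227, Fth1 both lay above that percentile. Hmox1 with the summed macrophage markers gave -0.08 and -0.06.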

How the data were processed

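Visium 3′ v1 libraries of 2 frozen CT26 sections (10 µm) were analysed, 1 per group. The authors aligned and counted with Space Ranger 1.1.0 on mm10 (per the labels and the study's methods), and deposited, for every spot, raw UMI counts of each gene. Array positions and in-tissue flags (the remaining values, with no unit) were used as deposited.

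Spots with under 10% mitochondrial UMIs and over 200 genes were kept, as in the study's methods, which removed 2 control spots and 1 rIL7 spot. UMIs were summed per zone and divided by all UMIs of the zone (CPM). Intervals at 95% were exact Poisson for levels and Clopper-Pearson for ratios and shares, and cover counting error only. With 1 section per group no test was run. Grid steps were counted from the outside of the main piece of connected spots. Both sections used 1 slide barcode set, 1702 barcodes occurring in both. For sharing across spots, each was thinned to 5900 UMIs, leaving out 217 control and 81 rIL7 spots. The ratio, its interval, the fold limit and the grid steps were tested on simulated data.

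Members and lists were chosen with earlier results of these data known. All 8 members were named. From each pathway list, among genes with at least 20 UMIs, the largest and the smallest ratio and up to 4 past 1.5-fold were named, except that some items are not reported here; likeness to Hmox1 was ranked over blocks of at least 20 spots, and the 10 closest were named. Genes named around the peaks were chosen after their values were seen. Alternatives covered spot filters, scaling (TMM in edgeR 4.0.16, median-of-ratios in DESeq2 1.42.0), spot weights, zones, edge width, fold limit and thinning depth. Python 3.11.15 and R 4.3.3 were used. Gene positions come from RefSeq on GRCm38.p6. No sequence was printed.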

Additional observations from a re-analysis of the deposited data

Results flagged for a closer look

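The direction of the edge against interior ratio was opposite in the 2 sections for 4 genes, and the difference was not tested. Blvrb was at 0.955 (0.827 to 1.1) in the control and 1.29 (1.15 to 1.45) in the rIL7 section, with intervals that did not overlap. Slc48a1 was at 0.889 (0.771 to 1.02) and 1.12 (0.981 to 1.27). Tfrc was at 0.892 (0.784 to 1.01) and 1.02 (0.866 to 1.20). Slc40a1 was at 1.03 (0.379 to 2.41) and 0.707 (0.420 to 1.13). For the last 3 the intervals of the sections overlapped.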

How the results depend on the processing

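No paired analysis was possible because each group holds 1 section, and no replicate could be left out. Of the recalculated summary values 102 stayed within the counting interval or 1.5 times the count, 24 moved further and 2 turned. The log2 ratio of Hmox1 between the sections was 1.89 with each spot weighted the same, 1.68 at the edge alone, 2.20 per macrophage list UMI and 1.79 beyond 6 steps of the peak. The median over the 8 genes was 0.17 in the interior, 0.72 at the edge and 0.15 beyond 6 steps, and turned to -0.040 per macrophage list UMI. At the edge alone 5 genes were higher and 0 lower in rIL7, and at a 2-fold limit 0 were lower. The share of all genes was not computed for these alternatives, so nothing was read from the counts.

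The rIL7 edge log2 ratio of Hmox1 was -1.88 per macrophage list UMI, -0.81, -2.07 and -0.40 without the upper right, lower left and lower right quadrant, and 0.00 (0.0030) beyond 6 steps of the peak. In the control it was 0.14 beyond 6 steps. The rIL7 median over the 8 genes was -0.68 per macrophage list UMI and 0.40 beyond 6 steps. The count higher at the rIL7 edge was 0 per macrophage list UMI, 3 at the lower fold limit tried and 2 beyond 6 steps. The control count was 1 at that limit, without the upper left or the upper right quadrant, and beyond 6 steps. For these counts too the share of all genes was not computed, and nothing was read from them.

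Among single genes, the section log2 ratio of Fth1 turned to -0.11 with spots weighted the same, -0.043 in the interior, -0.26 per macrophage list UMI and -0.022 beyond 6 steps, and that of Slc48a1 to -0.12 per macrophage list UMI. At the rIL7 edge Ftl1 turned to -0.38 and Blvrb to -0.41 per macrophage list UMI. Fth1 turned to 0.023, 0.031 and 0.014 without the upper left, upper right and lower right quadrant and to 0.043 beyond 6 steps. The cause of these changes was not tested. The limit of 6 steps was chosen after seeing the data. Slc40a1 and the control peak rest on few UMIs: 35 in the control section and 13 Hmox1 UMIs within 2 steps of its peak.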

Other observations

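Genes outside the iron lists also differed around the Hmox1 peaks, and the names here were picked after their values were seen. In the rIL7 section, spots within 4 steps of the peak had more Pf4, a chemokine of platelets and some macrophages, than spots at 10 or more steps, at 1504 against 223 CPM. Arg1, arginase, a gene of alternatively activated macrophages, had 318 against 74.1 CPM. Fabp5, a lipid carrier, had 669 and 121 CPM. Among the lowest ratios there were those of H2-Aa, at 98.7 against 482 CPM, and H2-Eb1, at 108 against 537 CPM, both chains of class II molecules, and Cxcl9, an interferon-induced chemokine, was at 40.1 against 190 CPM. The immunoglobulin light chain gene Igkc had 9.63 and 152 CPM. Spots at 10 or more steps from the peak include the edge, and the part of position in these differences was not tested. Genes high near the peak also included Oasl1, which interferon induces as well, at 104 against 22.1 CPM. The chemokine gene Ccl5 was at 926 against 232 CPM.

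Around the control peak Cxcl2, a neutrophil attractant, had 191 CPM within 4 steps and 1.21 CPM at 10 or more, and Hcar2, a receptor of hydroxy acids, had 457 and 3.74 CPM. Cxcl2, Hspa1a and G0s2 were among the 15 genes of largest ratio in both sections. Of genes at least 2-fold higher within 4 steps, 68 in the rIL7 and 261 in the control section, 20 were shared, which is 29.4% and 7.66% of each.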
